A study of Mus musculus with 10 samples.

Results

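Pattern recognition receptors are the sensors with which cells detect microbes and damage, and 38 genes that encode them or the adaptors directly behind them were followed in the DNA methylation profiles of mouse lung. They fall into the Toll-like receptors, the co-receptors and adaptors of the Toll-like receptors, the NOD-like receptors, the RIG-I-like receptors with Mavs, the C-type lectin receptors with Card9, and the inflammasome genes Aim2, Pycard and Casp1. The genes were chosen by name, with earlier results of these data known. A window of the genome belonged to a gene when it overlapped the RefSeq span of the gene, with 5 kb added on each side. Spans were those of GRCm38, the build also called mm10. Windows were 1000 bp long and were taken every 500 bp, so neighbours share CpGs. Of 446336 windows deposited for the whole series, 523 belonged to 36 of the 38 genes, and 499 of these had at least 20 CpG calls in every mouse, as did 421759 windows in all. Tlr4 and Clec4n were not analysed here. A CpG call is the reading of 1 CpG on 1 sequenced fragment as methylated or unmethylated, and the methylation level of a window is the share of its calls that were methylated.

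The study asked which methylation differences arise in allergic asthma and which of them change under an herbal treatment. Lung DNA came from 8-week-old female BALB/c mice of 3 groups: 3 saline mice, 3 OVA-induced mice and 4 DSE-treated mice. OVA-induced mice were sensitized by intraperitoneal ovalbumin (OVA) in alum on Days 0 and 7, were challenged with intranasal OVA on 4 days from Day 12, and received oral vehicle. DSE-treated mice, named Herb in the sample labels, were sensitized and challenged in the same way and received seed extract of Descurainia sophia (DSE) by mouth on Days 9 to 15, so DSE was never given without OVA. Saline mice were injected with saline only, and no gene was altered in any group. Whole lung was sampled, so a change in the mixture of cells and a change of methylation within 1 cell type cannot be told apart in these values.

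Toll-like receptors sit in the cell surface or endosome membrane and signal through adaptors with a TIR domain, Myd88, Tirap and Ticam1, the first of which recruits the Irak kinases. NOD-like receptors are cytosolic proteins, several of which assemble inflammasomes that recruit Pycard and activate Casp1, the protease that matures interleukin-1β and interleukin-18. RIG-I-like receptors detect viral RNA and signal through Mavs on mitochondria, and the C-type lectin receptors Clec7a and Clec4e bind fungal and mycobacterial glycans and signal through Card9. In the lung these sensors are used by macrophages, dendritic cells, granulocytes and the airway epithelium. CpG methylation is low at active CpG-rich promoters and high over most of the remaining genome.

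The starts of these genes differed in how many CpGs they held, and the promoter sequences of 5 members are shown because 2 of them lay in windows hypo methylated in both OVA groups and 3 in windows of low methylation. The sequences are from RefSeq, build GRCm38.p6, cover the 250 bases before the start of the gene, run 5′ to 3′ on the strand of the gene, and have each CpG in capitals. Clec4e, at chr6:123289872-123290121 on the minus strand, and Casp1, at chr9:5298267-5298516 on the plus strand, held 3 and 1 CpGs and are the first kind. Myd88 at chr9:119340019-119340268 on the minus strand, Irak2 at chr6:113638217-113638466 on the plus strand and Ifih1 at chr2:62646256-62646505 on the minus strand held 9, 12 and 11 CpGs and are the second kind.

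Clec4e: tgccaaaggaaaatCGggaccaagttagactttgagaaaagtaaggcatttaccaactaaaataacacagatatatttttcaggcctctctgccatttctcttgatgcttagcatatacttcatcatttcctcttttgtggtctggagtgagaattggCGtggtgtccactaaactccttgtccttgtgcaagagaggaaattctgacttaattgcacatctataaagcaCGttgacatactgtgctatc

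Casp1: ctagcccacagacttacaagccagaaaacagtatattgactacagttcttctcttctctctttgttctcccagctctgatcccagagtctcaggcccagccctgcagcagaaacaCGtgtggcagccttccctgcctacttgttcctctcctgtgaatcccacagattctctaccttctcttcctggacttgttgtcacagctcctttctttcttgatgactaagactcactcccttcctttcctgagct

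Myd88: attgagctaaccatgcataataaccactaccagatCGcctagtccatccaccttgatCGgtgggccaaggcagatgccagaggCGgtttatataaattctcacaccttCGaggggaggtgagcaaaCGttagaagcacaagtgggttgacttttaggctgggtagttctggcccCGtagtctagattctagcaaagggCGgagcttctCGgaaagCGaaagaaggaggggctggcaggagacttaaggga

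Irak2: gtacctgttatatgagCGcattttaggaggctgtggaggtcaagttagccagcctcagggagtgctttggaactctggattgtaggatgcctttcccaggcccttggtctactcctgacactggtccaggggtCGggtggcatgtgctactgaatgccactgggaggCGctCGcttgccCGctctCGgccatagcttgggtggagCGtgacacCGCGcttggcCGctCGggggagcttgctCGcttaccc

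Ifih1: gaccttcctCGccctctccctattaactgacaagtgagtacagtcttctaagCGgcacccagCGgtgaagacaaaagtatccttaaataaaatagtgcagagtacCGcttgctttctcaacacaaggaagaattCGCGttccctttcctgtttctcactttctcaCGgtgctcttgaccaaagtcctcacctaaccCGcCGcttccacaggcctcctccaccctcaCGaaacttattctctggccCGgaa

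The sequence table held 38 promoters of 30 members, and the median was 6 CpGs over all 32851 promoters of the table. For 23 members there was both a sequence and a methylation level of the promoter, defined as the mean over windows whose midpoint lies within 1000 bp of a curated RefSeq start. For a member with several starts, the start with the most CpGs was taken. Other starts could hold far fewer, as in Nod1 (12 and 4) and Tlr1 (8 and 1). Counted so, the 13 members with a level under 20% in saline mice held a median of 11 CpGs in the 250 bases (range 2 to 21). The 10 with a higher level held a median of 3.5 (range 0 to 8). Tlr9, with no CpG in its 250 bases, had a promoter level of 57.0% in saline mice.

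Promoter levels in saline mice covered overlapping ranges in most classes, and the adaptors stood at the low end. A promoter level was available for 29 members, of which 15 were under 20%, 10 between 20% and 50%, and 4 at 50% or more. All 8 co-receptors and adaptors of the Toll-like receptors were under 20%, with a median over their promoter windows of 2.48% against 4.66% over all promoter windows of the series. Cd14, the lipopolysaccharide-binding co-receptor, was at 1.26% ± 0.683 (SD, n = 3), and Myd88, the adaptor shared by most Toll-like receptors, at 1.91% ± 0.189. Irak2, an Irak kinase, was at 6.92% ± 0.971, Ticam1, the adaptor of Tlr3 and Tlr4, at 11.7% ± 1.21, and the kinase homologue Irak3, an inhibitor of the pathway, at 12.6% ± 0.760. Irak4, the kinase that acts first, was at 13.7% ± 0.484, Ly96, the partner of Tlr4, at 15.1% ± 1.39, and Tirap, the bridging adaptor of Myd88, at 18.3% ± 1.04.

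The receptors themselves were spread more widely. Among the Toll-like receptors, Tlr2, which binds bacterial lipopeptides, had a promoter level of 2.13% ± 0.598 and the flagellin receptor Tlr5 of 7.90% ± 2.83. The double-stranded RNA receptor Tlr3 was at 29.4% ± 1.72, and Tlr6 and Tlr1, the partners of Tlr2, at 32.3% ± 1.85 and 34.1% ± 5.65. Tlr9, the receptor for unmethylated CpG DNA, was highest of the class at 57% ± 7.00. Among the NOD-like receptors, Nod1 and Nod2, which sense fragments of peptidoglycan, were at 3.40% ± 1.62 and 3.58% ± 0.215, and Nlrp10 at 22.1% ± 9.14. Ciita, the class II MHC transactivator, was at 29.5% ± 10.8, and the regulators Nlrx1, Nlrc3 and Nlrc5 were at 37.2% ± 1.40, 49.8% ± 1.44 and 82.4% ± 3.73. Ifih1, a sensor of long viral RNA, was at 0.971% ± 0.296, Mavs at 13.2% ± 0.702 and Dhx58, which modulates that pathway, at 47% ± 4.78. Card9 was at 20.4% ± 6.73 and Clec4e at 66.6% ± 2.52, while Pycard, the inflammasome adaptor, was at 16.1% ± 1.32, the DNA sensor Aim2 at 41.2% ± 11.4 and Casp1 at 65.1% ± 2.79. Each level is a mean over windows, which can differ far more than the mice. In saline mice promoter windows ran from 0.72% to 66.3% in Tlr3, 11.7% to 73.7% in Tlr6 and 6.41% to 87% in Nlrx1. Those of Tirap ran from 0.842% to 52.9% and those of Irak4 from 0.875% to 51.6%, while both of Tlr1 were at 34.1%. In the order of all 29 levels, 21 of the 28 neighbouring pairs differed by no more than the larger SD over mice of the pair. The other gaps lay above Nod2, Tlr5, Irak4, Pycard, Nlrc3, Tlr9 and Clec4e. Over the 29 genes, the promoter level and the mean number of CpGs per promoter window had a Spearman rho of -0.687, given as a description across genes of the same libraries. No promoter level is given for Tlr11, Tlr12, Nlrp3, Nlrp6, Nlrp12, Nlrc4 and Clec7a, none of whose tested windows had its midpoint in the promoter.

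**Figure D1:**
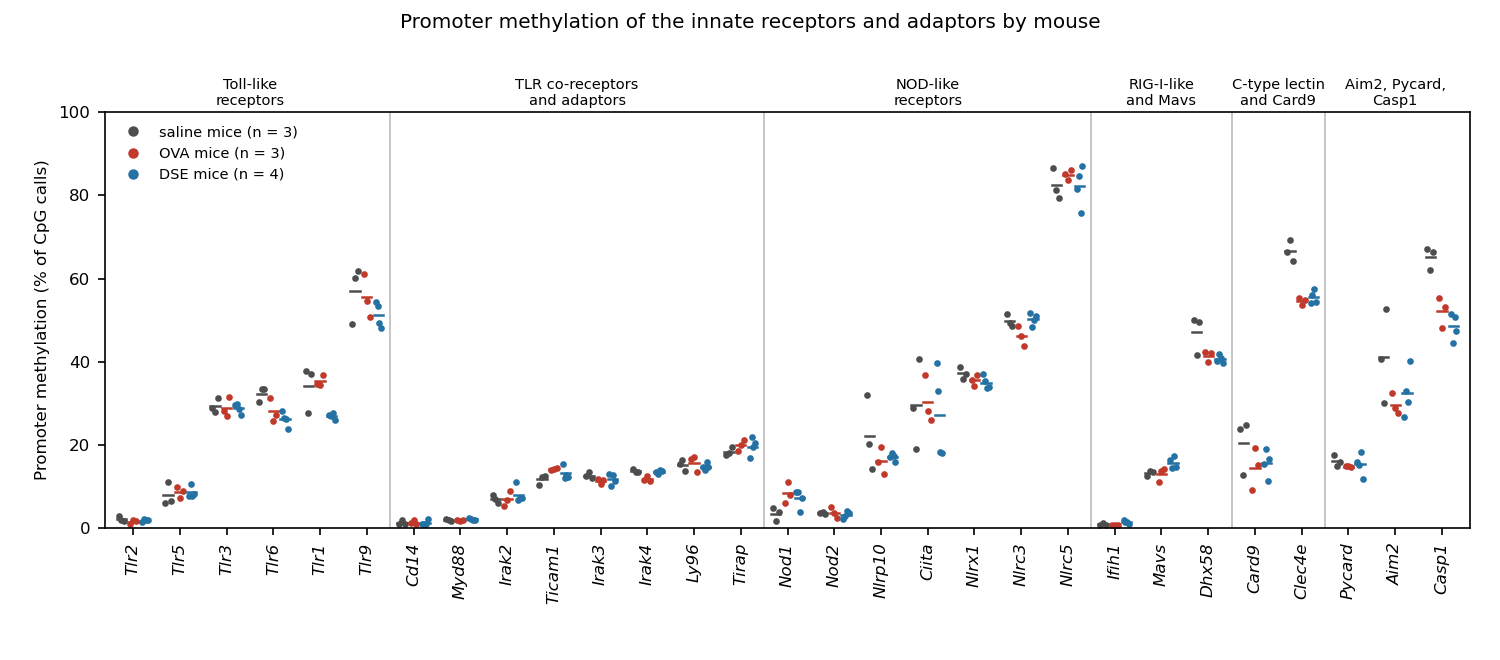
Promoter methylation, as the percentage of CpG calls that were methylated averaged over promoter windows, for 29 members grouped by class; each point is 1 mouse and each bar a group mean, with saline mice in grey, OVA-induced mice in red and DSE-treated mice in blue. The 8 Toll-like receptor adaptors lie under 20% in saline mice, and Clec4e and Casp1 start near 66.6% and 65.1% and are lower in both OVA groups.

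Mean levels away from the promoters were higher than in them. In saline mice the 96 promoter windows averaged 24.5% ± 0.65 (SD, n = 3), the 276 windows in exons and introns 53.0% ± 0.54, and the 127 flanking windows 47.1% ± 0.10. On pooled calls, which weight deeply covered windows more, the promoter windows stood at 16.2%, the gene bodies at 47.9% and the flanks at 29.98%. Single windows ranged from 0% to 95.2% in the gene bodies and from 0.632% to 94.8% in the flanks. Some low levels away from the start belong to another gene: 44 of the 499 windows lie within 1000 bp of the start of a neighbour, among them a flanking window of Tlr12, a receptor for a parasite profilin, that is the promoter of Zscan20.

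**Figure D2:**
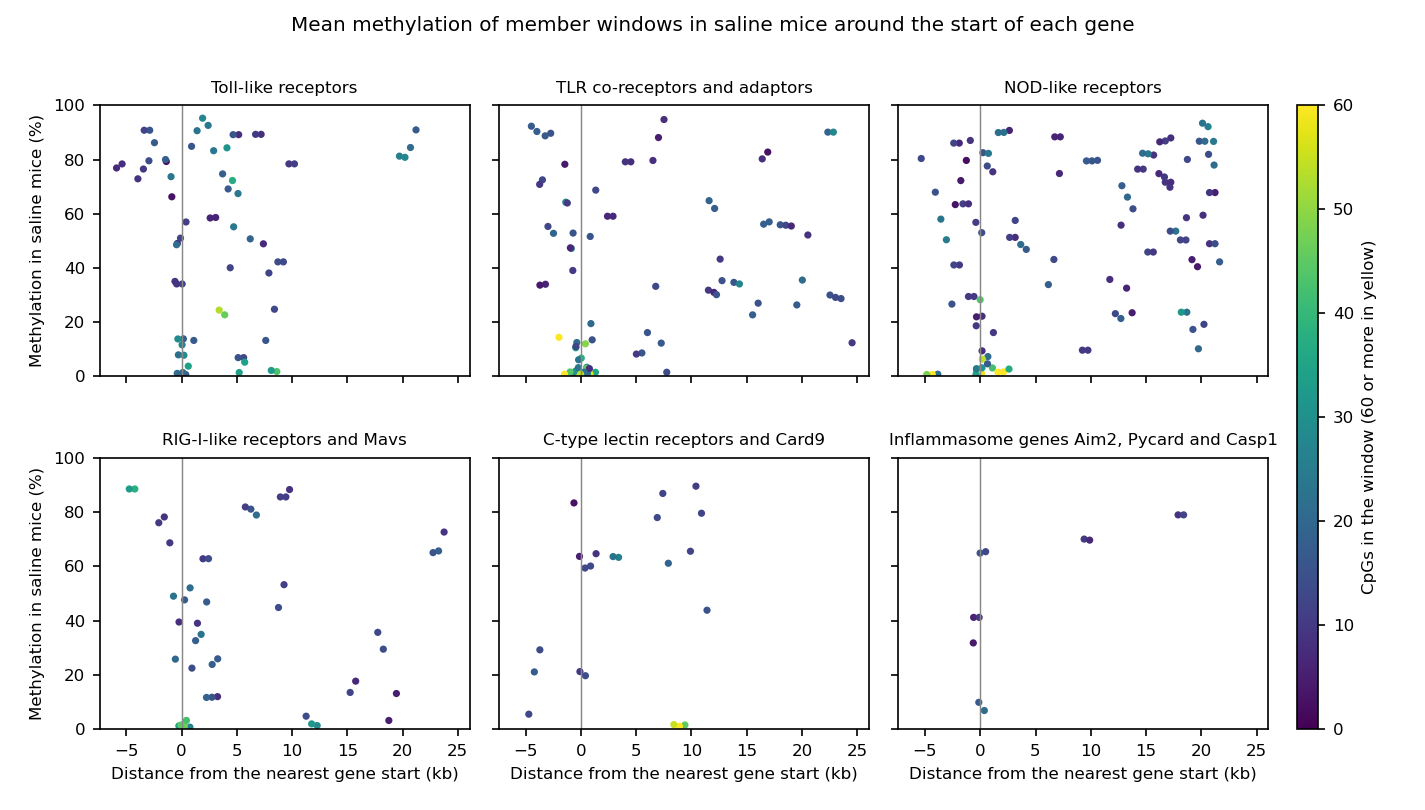
Mean methylation of each member window in the 3 saline mice against its distance in kb from the nearest curated start of its gene, from 8 kb before to 25 kb after it, with 1 panel per class and the number of CpGs in the window as colour. Windows at the start with many CpGs often lie near 0, but not all do. A Tlr6 promoter window with 24 CpGs lies at 73.7%, and Nlrc5 promoter windows, with a mean of 20 CpGs, at 82.3% to 82.5%. The Clec4e and Casp1 DMR windows at the start, with 5 to 15 CpGs, lie at 59.4% to 65.4%. Clec4e also has a promoter window at 83.4%.

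Differences between groups were judged by 2 tests, each fitted on all 421759 windows. The first was the likelihood ratio test of a logistic model on the pooled methylated and unmethylated calls, and a window past an adjusted p of 0.01 with a difference of at least 10 percentage points is called a DMR, hyper methylated when the first-named group was higher and hypo methylated when it was lower. That test treats the calls of a group as independent, whereas calls of mice of the same group differed by a mean chi-square of 2.64 to 3.76 per window where counting error alone gives about 1. The second was limma on the log ratio of methylated to unmethylated calls of each mouse, with an adjusted p of 0.05, which uses the spread between mice. With an F test that scales the logistic model by that spread, 0 windows of the whole table passed in any comparison. At an unadjusted p under 0.05 it gave 76 member windows (15.2% against 15.4% of all) in OVA vs. saline. It gave 39 (7.82% against 7.35%) in DSE vs. OVA and 89 (17.8% against 21.1%) in DSE vs. saline. For this reason limma values are given beside the regions below. Beside them stands whether the groups overlapped, meaning whether any mouse of the higher group was at or under a mouse of the lower group. For a single window an exact permutation test, two-sided, cannot go below 0.1 with 3 against 3 mice or 0.057 with 3 against 4, so none can reach 0.05.

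The mice had between 306656737 and 410836272 calls each, summed over windows, and the lowest-covered mouse of a member window had 20 calls at least and 352 at the median. Over all windows the mean level was 51.2% ± 0.28 in saline mice, 52.4% ± 0.48 in OVA-induced mice and 52.3% ± 0.49 in the DSE-treated mice. Promoters of 7 of 9 leukocyte marker genes were lower than in saline mice by over 5 points in both OVA groups. The other genes hardly differed: Coro1a was at 15.1%, 14.7% and 14.8% in saline, OVA-induced and DSE-treated mice, and Lcp1 at 6.89%, 6.6% and 7.02%. The 37 promoter windows of 9 such genes averaged 44.3% to 45.9% in saline mice, 33.8% to 38.7% in OVA-induced mice and 34.6% to 37.1% in DSE-treated mice, and 20 of the 37 windows were hypo methylated in each OVA group against saline. Those of 3 eosinophil markers averaged 59.3% to 65.2%, 57.8% to 61.0% and 51.2% to 58.4%, those of 2 T cell markers 63.0% to 67.1%, 60.8% to 63.2% and 63.1% to 67.4%, and those of 3 B cell markers 54.5% to 59.97%, 52.9% to 57.7% and 55.5% to 59.2%. In lung epithelium, 4 marker genes had promoter means of 16.7% ± 0.761, 16.9% ± 0.186 and 17.7% ± 1.5, and in endothelium 4 had 25.2% ± 1.31, 28.04% ± 1.01 and 27.1% ± 0.945. The part of cell mixture in the results below was not tested.

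The first comparison, OVA vs. saline, gave as many hypo methylated as hyper methylated member windows. Of 499 windows, 16 (3.21%) were hyper methylated in 8 genes against 4.83% of all windows, and 16 (3.21%) were hypo methylated in 9 genes against 2.60%. Overlapping windows of the same direction formed 11 hyper methylated and 9 hypo methylated regions. limma called 22 windows (4.41%) against 3.74% of all, and 15 were called by both tests. Groups did not overlap in 133 windows (26.7%) against 27.0% of all. They did not overlap in 30 of the DMR windows, but DMRs were chosen by a difference between the same mice. Separation among them was thus partly built in, and its share among all DMR windows was not counted. Without the second OVA-induced mouse 10 windows were hyper methylated. The median difference was 0.13 percentage points over the member windows and 0.73 over all windows. Promoters were lower more often than higher: 6 of 96 promoter windows (6.25%), from 3 genes, were hypo methylated against 1.19% of all promoter windows, and 1 (1.04%) was hyper methylated against 1.86%. A window under 10% cannot fall by 10 points, and the median saline level was 11.9% over member promoter windows but 4.66% over all. The 2 hypo methylated shares are therefore not like for like.

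DSE vs. saline gave a like picture with more hypo methylated windows. Here 11 windows (2.20%) in 7 genes were hyper methylated against 5.02% of all windows, and 24 (4.81%) in 11 genes were hypo methylated against 3.09%. They formed 7 and 12 regions, and 19 windows were hyper methylated without the third saline mouse. limma called 35 (7.01%) against 7.25% of all, 24 of them DMRs, and groups did not overlap in 113 windows (22.6%) against 24.3%. In promoters 9 of 96 windows (9.38%), from 5 genes, were hypo methylated against 1.30%, and 1 (1.04%) was hyper methylated against 2.38%. These hypo methylated shares are not like for like either, for the reason given for OVA vs. saline. The 2 comparisons share the saline mice, so their counts are not independent of each other.

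The last comparison, DSE vs. OVA, asks what differed between treated and untreated asthmatic mice, and here few member windows differed. There were 2 hyper methylated windows (0.401%) against 0.888% of all windows and 7 hypo methylated ones (1.40%) against 0.699%, in 2 and 5 genes. Their regions numbered 2 and 5. Without the second OVA-induced mouse the counts were 4 and 13, and without the first OVA-induced or the second DSE-treated mouse 1 window was hyper methylated. limma called 1 window (0.2%) against 0.418% of all, and it was not a DMR. Groups did not overlap in 57 windows (11.4%) against 10.3%. No member promoter window was a DMR, against 0.902% hyper methylated and 0.211% hypo methylated among all promoter windows. limma at an unadjusted p under 0.05 gave 56 of the 499 windows (11.2%) against 9.87% of all.

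By class, shares are read against the 4.83% hyper and 2.60% hypo methylated among all windows in OVA vs. saline, and the 5.02% and 3.09% in DSE vs. saline. The C-type lectin receptors and the inflammasome genes had hypo methylated windows only, against saline in 1 gene each: 3 of 22 windows (13.6%), all of Clec4e, and 2 of 39 (5.13%), both of Casp1, in either comparison. Toll-like receptors had 3 hyper (3.90%) and 4 hypo methylated windows (5.19%) of 77 in OVA vs. saline, then 2 (2.60%) and 8 (10.4%) in DSE vs. saline. Their co-receptors and adaptors had 7 (5.19%) and 3 (2.22%) of 135, and then 3 and 3 (2.22% each), all in Irak2, Irak3 and Irak4. The NOD-like receptors had 5 (2.86%) and 4 (2.29%) of 175, and then 5 (2.86%) and 6 (3.43%). The RIG-I-like receptors with Mavs had 1 (1.96%) and 0 of 51, and then 1 (1.96%) and 2 (3.92%). In DSE vs. OVA the 2 hyper methylated windows were in NOD-like receptors, and the hypo methylated ones were 2 in Toll-like receptors, 1 in an adaptor, 2 in the RIG-I-like class and 2 in Aim2. No test between classes was made.

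**Figure D3:**
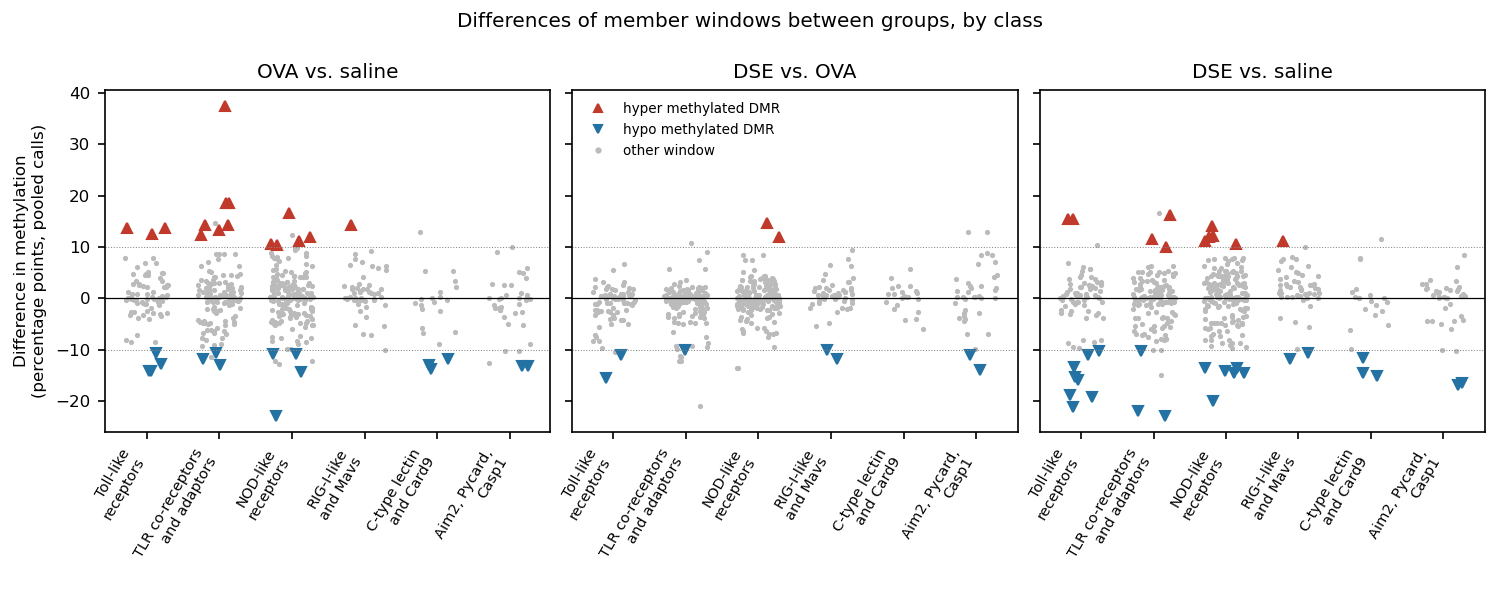
Difference in methylation of each member window in percentage points of pooled calls, by class, for OVA vs. saline, DSE vs. OVA and DSE vs. saline; red triangles are hyper methylated DMRs, blue triangles hypo methylated DMRs, grey points other windows, and dotted lines mark 10 points. DMRs number 16 and 16 in the first panel, 2 and 7 in the second and 11 and 24 in the third.

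Clec4e (Mincle), the receptor for mycobacterial cord factor, was hypo methylated over its start in both OVA groups. Its 3 overlapping windows at chr6:123288501-123290500 had 247 to 2597 calls per mouse. In the window reaching farthest into the gene, with its midpoint 870 bp after the start, levels were 59.9%, 61.7% and 58.7% in saline mice, 49.5%, 45.2% and 50.1% in OVA-induced mice, and 46.6%, 46.2%, 43.7% and 45.2% in DSE-treated mice. The next window, at 370 bp, gave 58.3%, 60.6% and 59.2%, then 47.4%, 43.7% and 48.6%, and then 44.97%, 46.4%, 42.6% and 42.8%. Across the start itself, at -130 bp, the levels were 62.2%, 65.2% and 63.5%, then 52.6%, 49.3% and 48.1%, and then 50.8%, 53.4%, 54.9% and 49.1%. Saline mice were above every mouse of both other groups in all 3 windows. Pooled differences were -11.9, -12.9 and -13.7 points in OVA vs. saline (limma adjusted p = 0.033, 0.028 and 0.027) beside -14.6, -15.1 and -11.7 in DSE vs. saline (0.011, 0.011 and 0.021). Between DSE-treated and OVA-induced mice they were -2.68, -2.15 and 2.07 points, with overlapping groups.

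Casp1, the inflammatory caspase, was also hypo methylated at its start in both OVA groups. Its 2 windows at chr9:5298001-5299500 had 972 to 2389 calls per mouse. At the start the levels were 66.8%, 61.4% and 66.5% in saline mice, 55.2%, 47.9% and 52.7% in OVA-induced mice, and 51.2%, 44.4%, 50.7% and 47.5% in DSE-treated mice. In the window 500 bp further they were 67.5%, 62.5% and 66.2%, then 55.5%, 48.4% and 53.6%, and then 51.6%, 44.4%, 50.9% and 47.3%. Neither OVA group overlapped the saline mice, and the 2 OVA groups overlapped each other. The differences were -13.2 and -13.1 points in OVA vs. saline (limma adjusted p = 0.044 and 0.043) beside -16.6 and -16.9 in DSE vs. saline (0.014 and 0.013). Promoters of 7 of the 9 leukocyte marker genes given above were lower in the same groups as those of Clec4e and Casp1. The part of cell mixture in these differences was not tested. Of the other inflammasome genes, Pycard had 3 windows of 6.82% to 31.7% in saline mice and no DMR, and Aim2 had none against saline.

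Among the Toll-like receptors, Tlr6 was hypo methylated just before its start. At chr5:64960501-64961500, centred 953 bp before the nearest start, levels were 73.8%, 71.9% and 75.3% in saline, 67.3%, 55.1% and 59.95% in OVA-induced mice, and 62.2%, 57.1%, 59.2% and 54.9% in the DSE-treated mice. All mice of both OVA groups were below the saline mice. The difference was -12.8 points in OVA vs. saline, where limma gave an adjusted p of 0.050 that does not pass, and it was -9.63 without the second OVA-induced mouse; in DSE vs. saline it was -15.3 (limma adjusted p = 0.019). The next window, 1453 bp before that start and inside a longer RefSeq model of the gene, had 82.9%, 78.3% and 78.8%, then 72.9%, 64.5% and 76.9%, and then 69.98%, 57.3%, 68.3% and 61.3%, a DMR in DSE vs. saline only (-15.9 points, limma adjusted p = 0.029). The window at the start of Tlr6 was low throughout, with 9.67%, 11.97% and 13.4% in saline mice, 11.7%, 11.3% and 11.2% in OVA-induced mice and 9.84%, 10.1%, 9.07% and 7.72% in DSE-treated mice.

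Tlr3 differed in its upstream flank, in a pair of windows far before its start. At chr8:45415501-45416500 levels were 75.1%, 80% and 80% in saline, 73.8%, 64.5% and 64.3% in OVA-induced mice, and 60.96%, 53.8%, 62.8% and 49.2% in the DSE-treated mice, and the groups followed each other without overlap. In the window 500 bp further upstream they were 72.8%, 78.2% and 79.7%, then 68.4%, 57.4% and 62.2%, and then 62.8%, 53.8%, 63.4% and 49.2%. Differences were -10.7 and -14.2 points in OVA vs. saline (limma adjusted p = 0.110 and 0.073, neither past the threshold) beside -21.2 and -19.2 in DSE vs. saline (0.013 and 0.020). Without the second OVA-induced mouse the larger OVA vs. saline window was no longer a DMR. Between the 2 OVA groups the first window differed by -10.5 points and was not past the adjusted p of the likelihood ratio test. Both windows had 95 to 185 calls per mouse.

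The promoter of Tlr9 was a DMR in DSE vs. saline with a wider spread. At chr9:106222501-106223500, centred 403 bp after its start, levels were 52.5%, 60.7% and 57.7% in saline, 55.3%, 51.9% and 42.4% in OVA-induced mice, and 46.1%, 49.9%, 46.1% and 41.2% in the DSE-treated mice. The difference was -11.1 points with a limma adjusted p of 0.088, and it was no longer a DMR without the second saline or the fourth DSE-treated mouse. Nearest the start, at -97 bp, the values were 42.8%, 54.9% and 55.4%, then 55.9%, 47.9% and 38.3%, and then 47.1%, 45.3%, 45.3% and 33.5%, and all groups overlapped. Downstream of the gene, at chr9:106229501-106230500, they were 38.4%, 58.4% and 50%, then 37.7%, 35.02% and 26.9%, and then 41.4%, 36.5%, 44.4% and 36.1%, a difference of -14.1 points in OVA vs. saline (limma adjusted p = 0.101).

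Dhx58 (LGP2) is the RIG-I-like receptor without signalling domains. At chr11:100703001-100704000, within its promoter, levels were 51.7%, 49.1% and 55.3% in saline, 43.4%, 42.6% and 40.6% in OVA-induced mice, and 42.7%, 39.1%, 43.5% and 37.3% in the DSE-treated mice. No OVA-induced or DSE-treated mouse reached the saline mice. The difference passed in DSE vs. saline (-11.8 points, limma adjusted p = 0.030) and was -9.98 points, short of the threshold of 10 points, in OVA vs. saline. In the window 500 bp further into the gene the levels were 36.3%, 30.2% and 31.3%, then 26.2%, 24.9% and 30.8%, and then 24.8%, 21.98%, 21.8% and 18.8% (-10.7 points in DSE vs. saline, limma adjusted p = 0.028). At -230 bp, nearest the start, they were 39.7%, 37.8% and 40.8%, then 35.1%, 29.9% and 38.1%, and then 28.5%, 36.9%, 33.99% and 35.8%, with no DMR.

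Nlrp3, the sensor of the best-studied inflammasome, was lower in its upstream flank. In 2 overlapping windows at chr11:59539501-59541000, which returned the same percentages, levels were 68.9%, 60.2% and 61.9% in saline, 53.98%, 55.5% and 50.3% in OVA-induced mice, and 51.5%, 46.2%, 53% and 47.4% in the DSE-treated mice. Saline mice were above all others. The difference was -10.8 points in OVA vs. saline (limma adjusted p = 0.090, not past the threshold, and no DMR without the first saline or the third OVA-induced mouse) beside -14.5 in DSE vs. saline (0.024).

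Inside genes, the largest decrease in OVA vs. saline was in an intron of Ciita. At chr16:10524001-10525000 levels were 68.6%, 72.3% and 63.8% in saline mice, 44.3%, 44.1% and 47.5% in OVA-induced mice, and 53.9%, 50.4%, 43.5% and 44.2% in DSE-treated mice, on 108 to 208 calls each. The overlapping window starting 500 bp on had 63.3%, 70.3% and 62.4%, then 48.99%, 49.7% and 53.6%, and then 54.3%, 48.4%, 54.1% and 47.8%. Saline mice were separate from both other groups in both windows. Differences were -22.8 and -14.4 points in OVA vs. saline (limma adjusted p = 0.022 and 0.039) beside -20.05 and -14.1 in DSE vs. saline (0.012 and 0.023).

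Irak3 (IRAK-M), which restrains Toll-like receptor signalling, was both lower and higher at different places. At 11596 bp into the gene, at chr10:120189501-120190500, levels were 72.7%, 66.95% and 54.8% in saline, 55.99%, 43.8% and 55.3% in OVA-induced mice, and 45.95%, 37.2%, 53.04% and 35.02% in the DSE-treated mice. The window overlapping it had 69.1%, 65.4% and 51.3%, then 54.2%, 42.6% and 53.3%, and then 44.01%, 34.7%, 49.6% and 33.8%. Saline and OVA-induced mice overlapped, and saline and DSE-treated mice did not. In DSE vs. saline the differences were -23.0 and -21.9 points (limma adjusted p = 0.042 and 0.041); in OVA vs. saline they were -13.1 and -11.8 (0.218 and 0.25), and the first was no longer a DMR without the first saline or the second OVA-induced mouse. Downstream of the gene, at chr10:120139501-120141000, levels were 33.5%, 35.8% and 35.3%, then 23.2%, 30.4% and 24.1%, and then 23.01%, 23.5%, 27.5% and 25.6% in the first window, and 52.1%, 52.3% and 46.8%, then 39.04%, 42.98% and 41.1%, and then 38.1%, 39.7%, 42.5% and 40.6% in the second. Those differed by -9.96 and -10.2 points in DSE vs. saline (limma adjusted p = 0.035 and 0.034), and the second, the only DMR of the pair, was lost without either of the first 2 saline mice or the first DSE-treated mouse.

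Irak2 and Irak4, the kinases that act after Myd88, had smaller decreases within the gene. In an intron of Irak2, 54534 bp and more after the start, at chr6:113692501-113694000, levels were 84.8%, 85.6% and 86.7% in saline, 76.2%, 74.9% and 73.4% in OVA-induced mice, and 78.2%, 83.04%, 81.99% and 72.7% in the DSE-treated mice in the first window, and 82.4%, 82.01% and 82.3%, then 76.2%, 75.4% and 74.1%, and then 77.7%, 77.3%, 77.5% and 76.3% in the second. Every saline mouse was above every OVA-induced mouse. The differences were -10.7 points (limma adjusted p = 0.040) and -7.00 points (0.034) in OVA vs. saline, and -5.09 points in DSE vs. saline in the second window (0.045). In Irak4, 2 windows at chr15:94565501-94567000 gave the same values, 91.1%, 90.4% and 88.8%, then 84.3%, 87.2% and 82.7%, and then 81.6%, 82.2%, 84.1% and 80.8%. That is -7.98 points in DSE vs. saline (limma adjusted p = 0.014), with fewer than 10 points of difference and so no DMR.

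**Figure D4:**
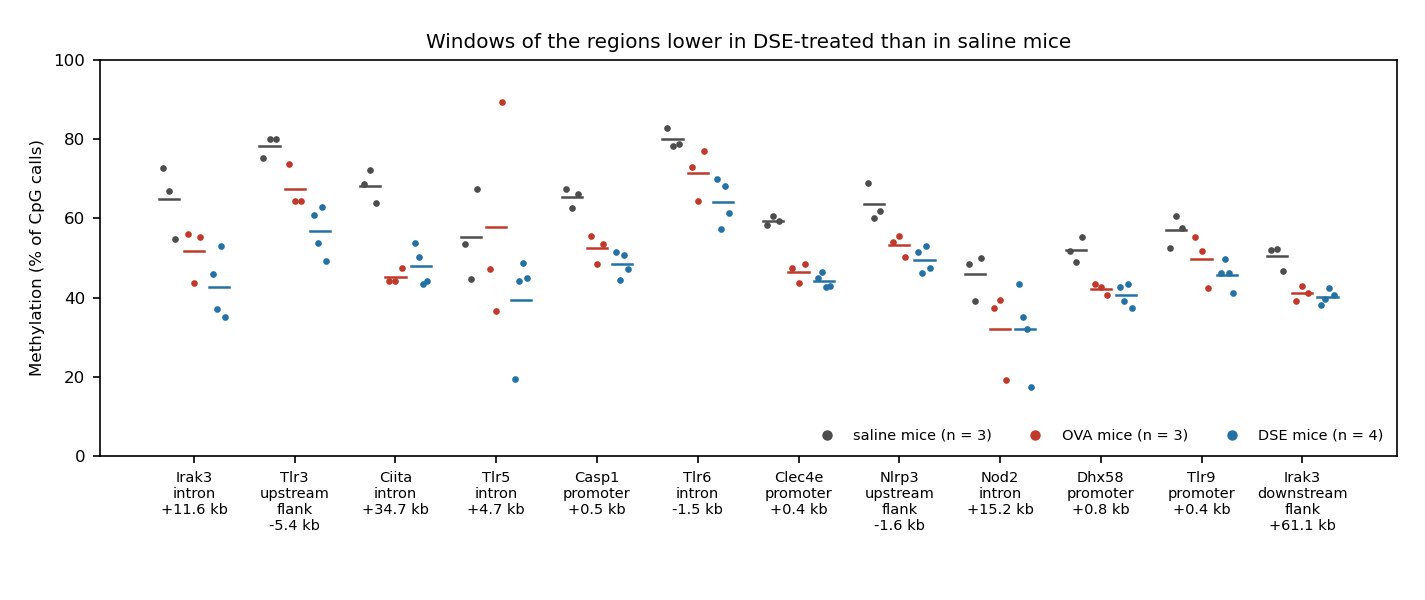
Methylation of the window that stands for each of the 12 hypo methylated regions in DSE vs. saline, with its part of the gene and its distance in kb from the nearest start; each point is 1 mouse and each bar a group mean, for 3 saline (grey), 3 OVA-induced (red) and 4 DSE-treated (blue) mice. Saline and DSE-treated mice are apart in all but the Tlr5 and Nod2 windows, and 1 OVA-induced mouse stands at 89.4% in Tlr5.

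Of the hyper methylated windows, 12 of 16 in OVA vs. saline and 8 of 11 in DSE vs. saline lay in exons or introns. Exons and introns held 276 of the 499 member windows. In Tlr5, 2 windows at chr1:182963001-182964500, 8713 bp and more into the gene, returned the same levels, 47.03%, 38.7% and 41.1% in saline, 51.6%, 57.5% and 60.3% in OVA-induced mice, and 60.6%, 56.3%, 55.3% and 58.9% in the DSE-treated mice. Saline mice were below all others. The difference was 13.8 points in OVA vs. saline (limma adjusted p = 0.044) beside 15.5 in DSE vs. saline (0.020), and the OVA groups overlapped. A smaller region nearer the start, at 6213 bp, had 50.4%, 47.01% and 54.8%, then 55.6%, 68.6% and 62.2%, and then 56.5%, 59.7%, 72.7% and 58.97%, with 12.6 points in OVA vs. saline and a limma adjusted p of 0.206, and it was a DMR in only 2 of 6 runs without 1 mouse.

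Irak3 was higher 29596 to 30596 bp into the gene. At chr10:120170501-120171500 levels were 55.9%, 59.9% and 63.1% in saline, 68.2%, 72.8% and 78.1% in OVA-induced mice, and 68.8%, 69.2%, 68.1% and 73.05% in the DSE-treated mice. In the window 500 bp on they were 57.2%, 58.7% and 62.7%, then 67.4%, 71.95% and 76.7%, and then 69.8%, 71.03%, 70.6% and 73.7%, and in the one after that 61.3%, 55.2% and 61.5%, then 64.7%, 69.3% and 71.2%, and then 73.04%, 76.98%, 78.5% and 75.3%. Saline mice were the lowest in all 3. Differences were 13.3, 12.3 and 8.71 points in OVA vs. saline (limma adjusted p = 0.046, 0.045 and 0.106) beside 10.0, 11.6 and 16.3 in DSE vs. saline (0.070, 0.033 and 0.011).

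The Nod1 gene gained methylation in an intron and in 1 of its promoter windows. At chr6:54967001-54968000 levels were 45.4%, 47.7% and 47.5% in saline, 56.8%, 61.3% and 57.95% in OVA-induced mice, and 51.8%, 51.95%, 49.1% and 57.9% in the DSE-treated mice, 11.9 points in OVA vs. saline (limma adjusted p = 0.048) beside 5.99 in DSE vs. saline. In the promoter window at chr6:54971001-54972000, with 63 to 112 calls, they were 14.5%, 3.17% and 10.7%, then 18.6%, 36.9% and 24.2%, and then 27.9%, 26.7%, 9.82% and 23.7%. It differed by 16.7 points in OVA vs. saline, with no overlap, and by 11.9 in DSE vs. saline, with overlap (limma adjusted p = 0.113 and 0.152). The first was not a DMR without the second OVA-induced mouse, and the second not without the second saline or the first DSE-treated mouse. The neighbouring window, at -340 bp and with 37 CpGs, had 2.81%, 1.83% and 2.19%, then 3.76%, 4.99% and 4.75%, and then 5.39%, 6.06%, 3.75% and 3.83%, a gain of 2.48 points in DSE vs. saline (limma adjusted p = 0.027). Over the other start, at chr6:54972001-54973000, all mice were between 0.88% and 1.64%.

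Irak2 was higher in 2 intron regions of OVA-induced mice. At chr6:113656501-113657500 levels were 54.5%, 46.9% and 65.95% in saline, 69.1%, 67.8% and 79.6% in OVA-induced mice, and 64.5%, 59.7%, 61.5% and 64.6% in the DSE-treated mice. At chr6:113662501-113663500, on 26 to 64 calls, they were 10.9%, 11.5% and 14.8%, then 16.3%, 40% and 38.5%, and then 19.4%, 12.5%, 17.1% and 23.8%. OVA vs. saline gave 14.4 and 18.5 points without overlap, and limma adjusted p values of 0.083 and 0.086 that do not pass. The second region was lost without the first saline or either of the last 2 OVA-induced mice.

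The largest difference of any member window lay downstream of Irak4. At chr15:94570501-94571500 levels were 19.2%, 20% and 9.09% in saline, 54.7%, 41.9% and 62.2% in OVA-induced mice, and 19.1%, 30.4%, 43.9% and 27.3% in the DSE-treated mice. OVA-induced mice were 37.5 points above saline mice (limma adjusted p = 0.027) without overlap. The window had only 20 to 53 calls per mouse, and DSE-treated mice, which differed from OVA-induced mice by -21.0 points, overlapped both other groups.

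Mavs, the mitochondrial adaptor of the RIG-I-like receptors, gained methylation downstream of the gene in OVA-induced mice. At chr2:131253001-131254000 levels were 12.8%, 10% and 16.4% in saline, 24.1%, 31.1% and 28.7% in OVA-induced mice, and 20.4%, 13.99%, 11.2% and 17.6% in the DSE-treated mice. OVA-induced mice were above every mouse of the other 2 groups, by 14.3 points over saline (limma adjusted p = 0.035), and DSE-treated mice overlapped the saline mice. In an intron at chr2:131235501-131237000 both OVA groups were higher, with 62.9%, 62.1% and 63.4%, then 64.2%, 70.02% and 73.8%, and then 74.4%, 72.02%, 69.7% and 73.8% in the first window, and 62.1%, 62.7% and 63.6%, then 68.8%, 71.1% and 77.2%, and then 75.8%, 72.5%, 71.3% and 75.2% in the second. DSE vs. saline gave 9.91 and 11.2 points (limma adjusted p = 0.048 and 0.033).

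In Ciita, upstream of its hypo methylated intron window, 2 windows at chr16:10517001-10518500 were higher. Levels were 53.2%, 52.5% and 50.8%, then 58.99%, 61.3% and 65.04%, and then 60.8%, 59.9%, 67% and 70.4% in the first, and 46.1%, 46.4% and 41.1%, then 55.2%, 51.96% and 57.6%, and then 51.2%, 48.9%, 63.2% and 61.4% in the second. Saline mice were the lowest in both. The first differed by 12.2 points in DSE vs. saline (limma adjusted p = 0.041), no longer a DMR without the fourth DSE-treated mouse, and the second by 10.3 in OVA vs. saline (0.174) beside 11.2 for DSE vs. saline (0.093). Downstream of Nlrp12, a negative regulator among the NOD-like receptors, levels were 35.9%, 33.6% and 37.1%, then 39.1%, 50.3% and 50.4%, and then 46.2%, 47.03%, 50.4% and 43.1%, with 10.5 points in OVA vs. saline beside 10.6 in DSE vs. saline (limma adjusted p = 0.094 and 0.060). The Nlrp12 window was lost without any of 3 mice in the first comparison and of 2 in the second, and the second Ciita window without the third saline or the third OVA-induced mouse.

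**Figure D5:**
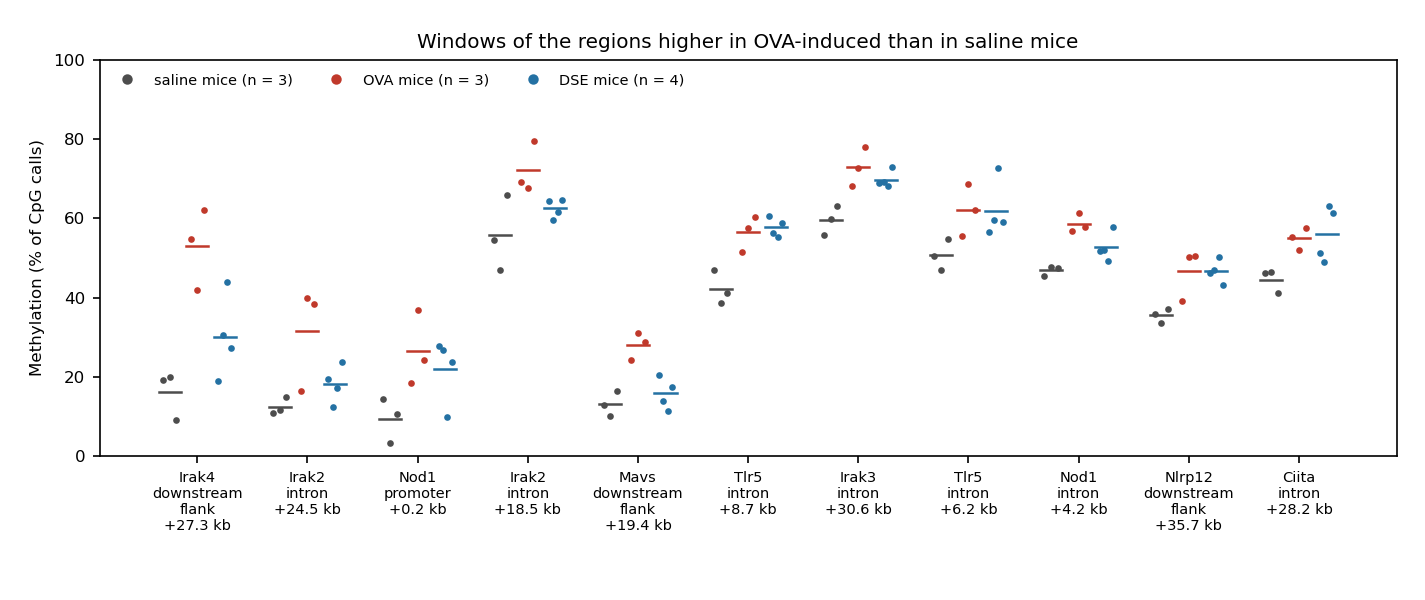
Methylation of the window that stands for each of the 11 hyper methylated regions in OVA vs. saline, with its part of the gene and its distance in kb from the nearest start; each point is 1 mouse and each bar a group mean, for 3 saline (grey), 3 OVA-induced (red) and 4 DSE-treated (blue) mice. OVA-induced mice are above the saline mice in all 11. DSE-treated mice overlap the saline mice in Mavs, Irak4, both Irak2 introns and the Nod1 promoter. They are above the saline mice in the Tlr5, Irak3, Nod1 and Ciita introns and downstream of Nlrp12.

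A few windows passed limma with smaller differences. Nlrc5, which drives class I MHC genes, had a window at chr8:94481501-94482500 with 9.70%, 8.47% and 10.9% in saline, 20.1%, 19.02% and 16.2% in OVA-induced mice, and 15.02%, 17.4%, 13.6% and 22.2% in the DSE-treated mice. Both OVA groups were above all saline mice, by 8.91 and 7.46 points (limma adjusted p = 0.038 and 0.034), and the window overlapping it passed as well. In an intron of Nlrp12, at chr7:3242001-3243500 and on 32 to 62 calls, levels were 90.9%, 87.5% and 86.7%, then 96.8%, 98% and 100%, and then 84.5%, 92.3%, 96.9% and 95.1%, or 9.73 points in OVA vs. saline (limma adjusted p = 0.034). At the start of Tirap, with 54 CpGs, they were 0.647%, 0.975% and 0.904%, then 1.84%, 1.40% and 1.62%, and then 1.12%, 1.33%, 0.988% and 0.986%, a difference of 0.769 points in OVA vs. saline (limma adjusted p = 0.038). In an intron of Nod2, at chr8:88666501-88667500, levels were 42.4%, 40.1% and 38.9%, then 38.8%, 37.04% and 39.4%, and then 30.1%, 35.4%, 30.1% and 33.2%, a difference of -8.16 points in DSE vs. saline (limma adjusted p = 0.0497). A second intron window of Nod2 was a DMR in DSE vs. saline on 35 to 90 calls, with 48.6%, 39.1% and 50%, then 37.4%, 39.3% and 19.3%, and then 43.3%, 35.1%, 32% and 17.4%, where the groups overlapped. It differed by -13.6 points (limma adjusted p = 0.242), ranged from -17.95 to -8.38 when single mice were left out, and was not a DMR without any of 4 of the 7 mice (the first or the third saline mouse, the third or the fourth DSE-treated mouse).

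In the RefSeq span of Aim2, 116494 bp long in this build and reaching far upstream of its curated start, 2 overlapping windows had methylated calls in DSE-treated mice only. In the first, at chr1:173398001-173399000 there were 0 methylated calls of 160 in the saline mice, which allows a level of up to 1.88%, and 0 of 112 in the OVA-induced mice, which allows up to 2.68%. DSE-treated mice had 4.57%, 6.20%, 12.9% and 10.9%, or 47 of 554 calls. The difference was 8.48 points from saline mice (limma adjusted p = 0.010) and from OVA-induced mice (0.056). In the second, with 0 of the same 160 and 112 calls in the other groups, DSE-treated mice had 5 methylated calls of 434, or 1.15%. Calls of the same fragment are not independent molecules, so these limits cover counting error only.

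Between DSE-treated and OVA-induced mice, 7 regions were DMRs, and none passed limma. The largest was in an intron of Tlr5, at chr1:182959001-182960000, where levels were 53.7%, 44.6% and 67.3% in saline, 47.2%, 36.7% and 89.4% in OVA-induced mice, and 19.4%, 44.3%, 48.8% and 44.9% in the DSE-treated mice. All groups overlapped, and the difference of -15.5 points ranged from -26.7 to -4.52 when single mice were left out. It was not a DMR without the third OVA-induced or the first DSE-treated mouse, and its limma adjusted p was 0.671. The same window differed by -18.8 points in DSE vs. saline (0.493).

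Without overlap, 4 other regions separated treated from untreated mice. Downstream of Nlrp3, at chr11:59569001-59570000, levels were 42.7%, 33.9% and 28.7% in saline, 35.04%, 28.7% and 39.3% in OVA-induced mice, and 52.96%, 50.7%, 49.5% and 42.7% in the DSE-treated mice, higher by 14.7 points (limma adjusted p = 0.213) and also a DMR in DSE vs. saline (14.1 points, 0.068). In the Aim2 span, at chr1:173456001-173457000, they were 43.01%, 37.7% and 42.7%, then 42.1%, 51.8% and 55.2%, and then 35.9%, 34.04%, 33.8% and 42.03%, a difference of -14.0 points (0.181). The downstream window of Mavs given above differed by -11.8 points (0.153). In an intron of Dhx58, at chr11:100702001-100703000, levels were 38.1%, 34.4% and 32.2% in saline, 41.95%, 41.3% and 47.4% in OVA-induced mice, and 35.2%, 32.8%, 33.9% and 31.5% in the DSE-treated mice, a difference of -10.1 points (0.136). The first 3 stayed DMRs without any 1 mouse, and the Dhx58 window did not without the third OVA-induced mouse or the second or the fourth DSE-treated mouse.

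The remaining 2 DMRs of that comparison had overlapping groups. An intron window of Nlrc5, at chr8:94486001-94487000, had 24%, 29.4% and 17.1% in saline, 16.5%, 15.2% and 25.4% in OVA-induced mice, and 25.2%, 41.3%, 31.9% and 28.8% in the DSE-treated mice, higher by 11.9 points (limma adjusted p = 0.308). The Irak3 intron window at chr10:120189001-120190000, given above, differed by -10.1 points (0.634). Each was lost without any of 3 or 4 of the 7 mice. The 1 window that limma called in DSE vs. OVA was the flanking window of Tlr12 at chr4:128610001-128611000, the promoter of Zscan20, with 2.14%, 1.85% and 2.65% in saline, 1.48%, 0.955% and 1.28% in OVA-induced mice, and 4.12%, 4.23%, 5.05% and 4.52% in the DSE-treated mice. DSE-treated mice were above all others there, by 3.18 points over OVA-induced mice (limma adjusted p = 0.010).

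Of the 36 members with windows, 18 had no DMR in any comparison: Tlr1, Tlr2, Tlr11, Tlr12, Cd14, Ly96, Myd88, Ticam1, Tirap, Nlrp6, Nlrp10, Nlrc3, Nlrc4, Nlrx1, Ifih1, Clec7a, Card9 and Pycard. Their 156 windows differed by -8.23 to 12.9 points in OVA vs. saline, -11.2 to 8.94 in DSE vs. OVA and -10.1 to 11.5 in DSE vs. saline. The promoters of Cd14, Myd88, Tlr2 and Ifih1, and also of Nod2, which had a DMR only in an intron, were low in every group, with means of 1.31%, 1.84%, 1.55%, 0.670% and 3.66% in OVA-induced mice and 1.26%, 2.06%, 1.78%, 1.42% and 3.16% in the DSE-treated mice. Tlr1 stood at 34.1% ± 5.65 in saline, 35.3% ± 1.40 in OVA-induced mice and 26.9% ± 0.650 in the DSE-treated mice without a DMR.

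As a wider view of the pathway, 2 further gene lists were counted in the same way. Of 23 other receptors, 18 had 136 tested windows, of which 7 were hyper and 6 hypo methylated in OVA vs. saline, then 0 and 2 in DSE vs. OVA, and then 5 and 10 in DSE vs. saline. Of 31 downstream signalling genes, 30 had 514 tested windows, with 16 and 19, 3 and 0, and 14 and 22. Among all windows the shares in the same order were 4.83% and 2.60%, 0.888% and 0.699%, and 5.02% and 3.09%. Hypo methylated promoter windows numbered 3 of 28 and 6 of 28 for the other receptors against saline, from 2 and 3 genes, and 3 of 116 and 5 of 116 for the signalling genes, from 1 and 2 genes. All promoter windows gave 1.19% and 1.30%, shares that depend on the starting level as said above. Promoter means of the other receptors were 28.2% ± 0.82, 25.3% ± 0.65 and 24.2% ± 0.82 in the 3 groups, and those of the signalling genes 11.3% ± 0.126, 10.5% ± 0.0475 and 10.7% ± 0.303, beside 24.5% ± 0.65, 22.8% ± 0.32 and 22.6% ± 0.47 for the members and 18.2% ± 0.13, 18.6% ± 0.38 and 19.2% ± 0.23 for all promoter windows.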

How the data were processed

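Lung DNA of 10 mice was captured with SureSelect Methyl-seq and sequenced after bisulfite conversion. Per the labels, the submitters' processing notes name cutadapt 1.10, Bismark 0.19.0, methylKit 1.0.0 and the build mm10; the study's methods name other versions of these tools, and which were used is not settled here. The deposited table gives, for each window and mouse, the counts of all CpG calls (coverage), methylated calls and unmethylated calls, not normalized, and every window held at least 10 calls in each mouse. Percentages of methylation were computed from these counts. Depth was 306656737 to 410836272 calls per mouse summed over overlapping windows, so a CpG can be counted more than once.

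Windows were joined to RefSeq genes of GRCm38 with 5000 bp added, and windows with at least 20 calls in every mouse were kept. Each pair of groups was compared with a logistic likelihood ratio test on pooled counts, with Benjamini-Hochberg adjustment over all windows, an adjusted p under 0.01 and at least 10 percentage points. Beside it limma 3.58.1 (R 4.3.3) was fitted to M-values with a pseudocount of 1, all mice in one fit, at an adjusted p under 0.05. Both were run on simulated data, where their recovery was checked only for calls with counting error alone. That check does not cover the spread between mice seen here. Other steps used Python 3.11.15, numpy 2.4.6, pandas 2.3.3, scipy 1.17.1 and matplotlib 3.10.9.

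The members and gene lists were chosen with earlier results of these data known. Mouse by mouse values were given for the 10 regions with the largest difference in each comparison, for windows past limma and for the promoter window nearest the start of members with a promoter DMR. The values of 5 smaller regions, in Ciita, Nlrp12, Nod2, Tlr5 and Tlr9, were added after they had been seen. The study used 7 mice per group, of which those with a methylation profile are used here, and the labels number the mice of each group. Alternatives covered the coverage minimum, the test, the difference threshold, overlapping windows, the gene span, the weighting of mice, the replicate number as a block and leaving out each mouse.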

Additional observations from a re-analysis of the deposited data

Results flagged for a closer look

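Among 89 values tested in the 4 DSE-treated mice, 5 had 1 mouse far from the other 3, with a gap to the nearest mouse past the critical value of Dixon's test. Chance alone gives this in about 1 in 20 groups. In the Tlr5 intron window at chr1:182959001-182960000 the first mouse was lowest at 19.4%, beside 44.3%, 48.8% and 44.9%. In the Tlr9 promoter window at chr9:106222001-106223000 the fourth mouse was lowest at 33.5%, beside 47.1%, 45.3% and 45.3%. The promoter level of Cd14 was highest in the fourth mouse at 2.09%, beside 1.01%, 1.05% and 0.878%. That of Irak2 was highest in the first mouse at 11%, beside 6.71%, 7.31% and 7.16%, and that of Tlr5 in the second mouse at 10.6%, beside 7.74%, 7.69% and 8.17%. The groups of 3 mice were not tested in this way.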

How the results depend on the processing

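No difference of a named window turned its sign under the alternatives run for it, but the order of groups in mean levels did in the cases given last. With an F test that scales the logistic model for the spread between mice, all 6 counts of DMR windows and all named regions went to 0. That test called 0 of all windows at an adjusted p under 0.01 in each comparison, and at an unadjusted p under 0.05 it gave 76 member windows in OVA vs. saline (15.2% against 15.4% of all), 39 in DSE vs. OVA (7.82% against 7.35%) and 89 in DSE vs. saline (17.8% against 21.1%). limma with an adjusted p under 0.01 and 10 points also gave 0 throughout, and 2, 32 and 1100 of all windows; at an unadjusted p under 0.05 it gave 106, 56 and 116 member windows. limma at 0.05 with no threshold on the difference gave 10 hypo methylated windows in OVA vs. saline, but 1 hyper and 0 hypo methylated in DSE vs. OVA, and kept 9 of 20 named regions in OVA vs. saline but 0 of 7 in DSE vs. OVA. At 20 points there were 1 and 1 hyper and hypo methylated windows in OVA vs. saline, then 0 and 0 in DSE vs. OVA, and then 0 and 4 in DSE vs. saline, with 2, 0 and 3 regions. Windows that do not overlap gave 7 and 6 in OVA vs. saline beside 6 and 12 in DSE vs. saline, from fewer windows. Without the 5 kb extension 1 window was hyper methylated in DSE vs. OVA.

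Leaving out single mice gave 10 to 24 hyper and 14 to 22 hypo methylated windows in OVA vs. saline, then 1 to 4 and 5 to 13 in DSE vs. OVA, and 9 to 19 and 23 to 32 in DSE vs. saline. It kept 13 to 20, 4 to 7 and 15 to 19 named regions. The labels do not say whether mice with the same replicate number belong together. Deviations from the group mean had correlations of -0.0273 to 0.0785 over 9 pairs with the same number, which cannot settle it. The replicate block used numbers 1 to 3 only and so left out the fourth DSE-treated mouse. It gave counts of 16 and 16, 2 and 8, and 9 and 23, with 20, 5 and 16 regions. Leaving out that mouse without a block gave the same counts in the 2 DSE comparisons, 2 and 8, and 9 and 23, with 5 and 16 regions.

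Mean levels in saline, OVA-induced and DSE-treated mice moved more than the spread over mice under other definitions. Promoters were at 23.4%, 21.8% and 21.5% with at least 50 calls, 27.1%, 25.4% and 25.4% in windows that do not overlap, 28.9%, 27.2% and 26.9% with any overlap of the promoter, and 16.2%, 13.5% and 15.4% on pooled calls. Gene bodies were at 54.7% (OVA-induced) and 54.0% (DSE-treated) with any overlap and at 47.9%, 48.9% and 49.5% on pooled calls. Flanks were at 44.5%, 44.2% and 44.2% with at least 50 calls, 50.4%, 50.1% and 50.5% without overlap, 46.5% and 46.2% in saline and OVA-induced mice with any overlap, and 30.0%, 29.2% and 31.8% on pooled calls. OVA-induced mice were thus above DSE-treated mice in promoters and gene bodies as means over windows but below them on pooled calls, and saline mice above DSE-treated mice in flanks but below them on pooled calls, in windows that do not overlap and, by 46.466% to 46.469%, with any overlap. The cause of these shifts was not tested. Requiring 2 CpGs per window, an alternative chosen after seeing the data, kept every count within 1.5 times.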
